A study of Mus musculus with 12 samples.

Results

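The comparison described here is that of Sphk2 knockout against wild-type mice kept on a control diet with normal water, without the dietary challenge that the rest of the study added. It rests on 6 of the 12 libraries of the series, 3 knockout and 3 wild type, chosen by the diet and genotype that the header lines of the deposited workbook give for each animal. Transcripts of 547 mouse genes, mostly of the immune system, were counted in each animal with barcoded NanoString probes, which tag single RNA molecules without amplification. All mice were male and on the C57BL6-NJ background. The wild-type control-diet mice were 231, 231 and 232 days old, and the knockout control-diet mice were 259, 253 and 250 days old. Age therefore differed between the genotypes without overlap. The other 6 libraries came from wild-type mice (226, 226 and 232 days old) and Sphk2 knockout mice (221, 217 and 252 days old) fed a Western diet with sugar water, 3 of each. They entered the fit and were used for comparison. The labels name no promoter or cell type that would limit the knockout. Liver appears as the tissue in the series title alone, and no sample label states it.

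Sphingosine kinase 2 phosphorylates sphingosine to sphingosine 1-phosphate, a lipid that acts on cell surface receptors and, when made in the nucleus, on histone deacetylases. It is the main sphingosine kinase of the liver, where hepatocytes also make most of the circulating complement proteins and acute phase proteins. Those proteins are induced by interleukin 6 through its receptor subunit gp130 and the transcription factor STAT3. Neither Sphk2 nor Sphk1 was on the panel, and none of the genes listed for sphingosine 1-phosphate metabolism and its receptors was, so loss of the transcript could not be verified here. Of the 18 hepatocyte genes listed as markers, 12 were on the panel. C3, the central complement component, was a leading transcript in every library, between 46589 and 108467 normalized counts on the control diet.

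Each library held 440842 to 643638 whole counts, as recovered from the normalized values. A gene was tested when its mean over all 12 libraries reached 20 normalized counts, which 453 of 547 did and 94 did not. A gene passed when its Benjamini-Hochberg adjusted p in limma, fitted to all 12 libraries, was under 0.05. Differences are knockout minus wild type on the log2(normalized count + 1) scale, followed by their standard error (SE). On that scale the fold of a low gene is understated. Libraries are named by a replicate number that carries no order and pairs no animals. Knockout replicates 2 and 3 stood apart from the other 10 libraries in total normalized counts, with 748718 and 604594 against 473628 to 506442. In these same libraries C3 was the most abundant transcript, whereas B2m, the invariant chain of MHC class I, led in each of the other 10. Results that turn on these libraries are given with and without them.

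On the control diet 13 of 453 tested genes (2.87%) differed between the genotypes, 9 higher in the knockout (1.99%) and 4 lower (0.883%). The 4 lower genes were Ctsc, Cfd, Mme and Nox4. The 9 higher genes were Cdkn1a, S100a9, S100a8, Plaur, Nfil3, Cd5, Stat3, Litaf and Il6st. The median tested gene differed by 0.07. With each library recentred on its own median, that median was -0.04, and 5 genes passed as higher and 7 as lower. Stat3, Il6st, Litaf and Cd5 were the higher genes that lost their call there, with adjusted p-values of 0.139, 0.14, 0.139 and 0.148. In the scaling as deposited, 77 genes (17.0%) had an unadjusted p under 0.05. The 2 genotypes had separate ranges for 108 genes (23.8%), the 13 among them. With 3 animals against 3, an exact permutation test of a single gene cannot give a p below 0.1. With an equal-variance test per gene over all 12 libraries, 7 of the 13 passed. In a bulk sample fewer cells of a type and less RNA per cell cannot be told apart. The plot of difference against level shows that the 13 genes lay at low and middle levels and that the most abundant genes of the panel were not among them.

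**Figure D1:**
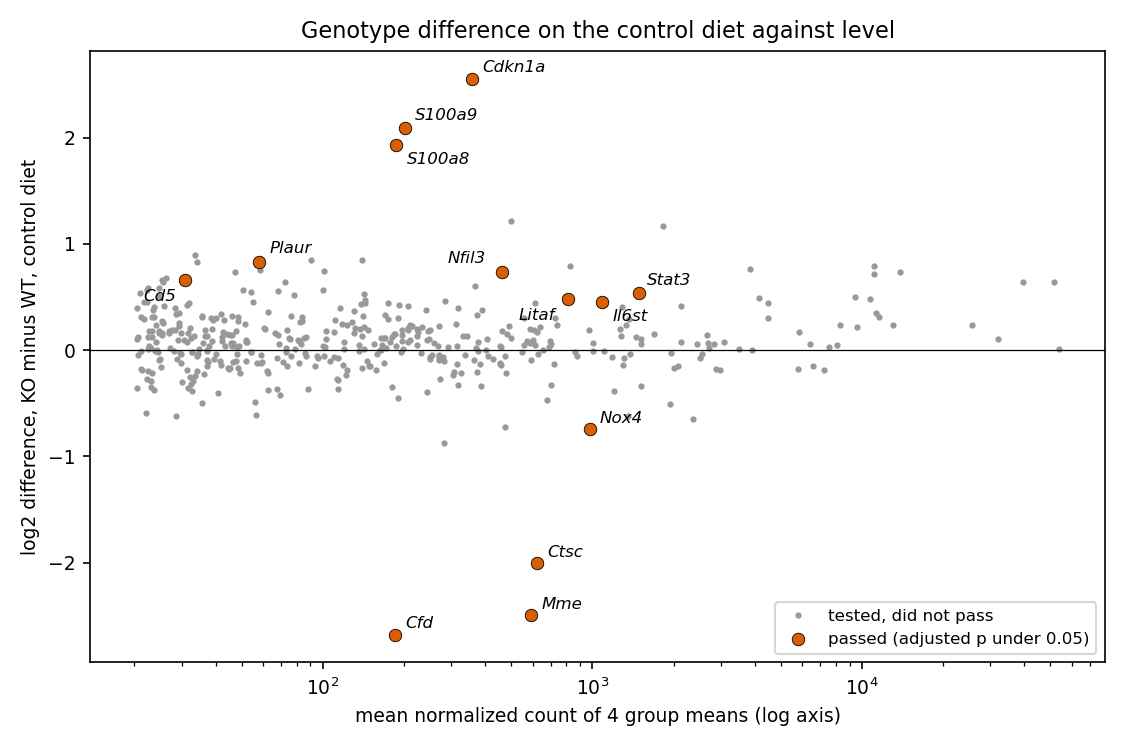
The log2 difference between knockout and wild type on the control diet (vertical axis) is plotted against the mean normalized count of the 4 group means (horizontal log axis) for 453 tested genes. Orange circles mark the 13 genes that passed, with Cfd lowest at -2.68 and Cdkn1a highest at 2.56.

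Promoter sequences are shown for the 4 lower genes, since 3 of them share a motif. Each run covers 250 bases before to 50 bases after a RefSeq transcript start (build GRCm38.p6), 5′ to 3′ on the gene's strand. Capitals mark TTCNNNGAA, the general STAT binding motif. For Mme the first of its listed starts is given, and the windows at its other listed starts held no match. Mme therefore counts as having the motif by that first start alone, and a gene with several starts had several windows searched.
Ctsc, chr7:88277835-88278134, plus strand: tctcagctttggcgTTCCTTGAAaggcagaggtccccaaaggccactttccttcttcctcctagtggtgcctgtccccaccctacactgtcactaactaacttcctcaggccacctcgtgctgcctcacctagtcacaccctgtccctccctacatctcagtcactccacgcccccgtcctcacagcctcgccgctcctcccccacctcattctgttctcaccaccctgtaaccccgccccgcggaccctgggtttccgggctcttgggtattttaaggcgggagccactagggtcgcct
Nox4, chr7:87246399-87246698, plus strand: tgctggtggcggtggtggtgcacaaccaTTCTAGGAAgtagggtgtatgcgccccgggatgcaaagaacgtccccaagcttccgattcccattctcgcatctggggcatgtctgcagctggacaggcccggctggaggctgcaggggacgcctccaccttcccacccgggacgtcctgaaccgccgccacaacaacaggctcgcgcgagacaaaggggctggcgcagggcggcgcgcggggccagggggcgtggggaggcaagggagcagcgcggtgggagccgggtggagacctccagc
Mme, chr3:63294961-63295260, plus strand: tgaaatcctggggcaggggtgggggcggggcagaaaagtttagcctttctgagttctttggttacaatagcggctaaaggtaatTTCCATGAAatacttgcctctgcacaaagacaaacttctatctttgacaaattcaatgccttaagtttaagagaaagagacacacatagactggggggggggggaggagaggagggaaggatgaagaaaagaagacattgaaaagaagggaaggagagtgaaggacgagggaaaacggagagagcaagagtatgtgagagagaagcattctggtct
Cfd, chr10:79890603-79890902, plus strand: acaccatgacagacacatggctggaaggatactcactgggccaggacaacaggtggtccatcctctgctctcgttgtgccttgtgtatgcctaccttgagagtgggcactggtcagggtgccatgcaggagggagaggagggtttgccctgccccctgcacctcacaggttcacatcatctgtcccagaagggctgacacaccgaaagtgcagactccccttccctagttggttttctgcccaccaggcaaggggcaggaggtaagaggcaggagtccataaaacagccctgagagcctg
The match began 236 bases before the start in Ctsc, 222 in Nox4 and 166 in Mme, and Cfd had none. TTCNNNGAA was searched on both strands, which read alike, over all listed starts of a gene. It occurred in 9.55% of the 27025 genes with a promoter entry and in 14.1% of the 341 tested genes with one. All 13 genes that passed had an entry, and the motif stood in 0 of the 9 higher and 3 of the 4 lower genes. The stricter palindrome TTCCNGGAA, found in 1.35% of all genes and 2.93% of tested genes, was in none of the 13. A match describes letters in this window and says nothing of binding.

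Ctsc encodes cathepsin C, the lysosomal dipeptidyl peptidase that activates the serine proteases of neutrophil, mast cell and cytotoxic T cell granules. It measured 977, 1188 and 1047 normalized counts in the 3 wild-type mice and 224, 346 and 241 in the 3 knockout mice. Every knockout library was far below every wild-type library. The group means were 1071 ± 107 and 270 ± 66.1 (SD, n = 3 each), a difference of -2.00 (SE 0.16, limma adjusted p = 1.75e-05), or 4.01-fold lower. The difference was as large on the Western diet, -1.99 (adjusted p = 1.91e-05), in animals that share no library with these. Of the proteases that cathepsin C acts on and other proteins of such granules, Gzma was tested and gave 0.22 (adjusted p = 0.804). Ctsg, Gzmb and Prf1 were too low. Ctss, the cathepsin that trims the invariant chain of MHC class II, gave 0.29 (adjusted p = 0.65).

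Nox4 encodes an NADPH oxidase that makes hydrogen peroxide constitutively and is expressed in hepatocytes and stellate cells. Its levels were 1210, 1122 and 1149 normalized counts in wild-type animals and 635, 770 and 677 in the knockout. The 2 ranges were well separated. Nox4 fell by 0.74 on the log2 scale (1.68-fold lower), with an SE of 0.09 and a limma adjusted p of 0.000322. On the Western diet the difference was -0.51 (adjusted p = 0.00331). Of the other NADPH oxidase genes tested, Nox1 (0.58, adjusted p = 0.357), Ncf4 (0.32, adjusted p = 0.406) and Cybb, the catalytic subunit of phagocytes (0.23, adjusted p = 0.696), did not pass. Nox4 was thus the 1 of 4 that did, where 2.87% of all tested genes passed. The 3 other tested members of the stellate cell and matrix list did not pass either.

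Ctsc and Nox4 are neighbours. By their RefSeq promoter entries both start on the plus strand of chromosome 7, 1.03 Mb apart, and no other panel gene lies between them. Sphk2 is on the same chromosome, 41.5 Mb from Nox4 and 42.6 Mb from Ctsc. Chromosome 7 held 34 of the tested genes (7.51%). Of these 34, 3 passed, the third being Plaur at 21.2 Mb from Sphk2, where 13 of all 453 tested genes (2.87%) passed. Chromosome 3 also held 3 of the genes that passed, of 24 tested (Mme, S100a8 and S100a9), and chromosome 13 held 2 of 11 (Nfil3 and Il6st). The tested panel genes nearest to Sphk2 were Bax at 0.248 Mb (0.14, adjusted p = 0.64), Fcgrt at 0.616 Mb (-0.02, adjusted p = 0.906) and Irf3 at 0.712 Mb (0.25, adjusted p = 0.487). None of these passed. Whether sequence linked to the targeted locus plays a part was not tested.

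Mme encodes neprilysin, a membrane metallopeptidase that degrades small peptides such as enkephalins, natriuretic peptides and amyloid beta. It measured 745, 940 and 817 normalized counts in wild-type libraries and 250, 79.2 and 159 in the knockout. The knockout libraries were all below the wild type and differed among themselves more than those of the other lower genes, with replicate 2 the lowest. Group means were 834 ± 98.8 and 163 ± 85.6 (SD, n = 3 each), a difference of -2.49 (SE 0.30, limma adjusted p = 0.000352), or 5.63-fold lower. On the Western diet Mme was lower by a smaller amount, -1.40 (adjusted p = 0.00684), and the change of the difference between diets, 1.09 (SE 0.43), did not pass (adjusted p = 0.119). Other surface peptidases and ectoenzymes did not pass. Dpp4, the dipeptidyl peptidase that cleaves incretins, gave -0.14 (adjusted p = 0.319) with 1433, 1402 and 1400 normalized counts in wild-type mice and 1392, 1231 and 1223 in the knockout.

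Cfd encodes complement factor D, or adipsin, the serine protease that cleaves factor B to start the alternative complement pathway. In the wild type it measured 99.3, 237 and 167 normalized counts, and in the knockout 27.3, 21.7 and 22.7. The wild-type libraries were spread widely, and the knockout libraries lay close together below all of them. The group means were 168 ± 69 and 23.9 ± 3 (SD, n = 3 each), a difference of -2.68 (SE 0.24, limma adjusted p = 3.28e-05), or 6.4-fold lower. Behind the knockout values stood 26, 17 and 23 recovered counts, so counting error alone is large there.

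Cfd was the one gene of the 13 for which the diets differed. Of 453 genes, 6 (1.32%) passed the test of the genotype difference on the Western diet minus that on the control diet, and Cfd led them at 2.54 (SE 0.34, limma adjusted p = 0.00427). On the Western diet the wild-type libraries held 281, 296 and 290 normalized counts of Cfd and the knockout libraries 234, 293 and 262. These overlapped, and the difference was -0.14 (adjusted p = 0.702). Cfd is an abundant adipocyte gene. The other adipocyte marker on the panel was Pparg, the nuclear receptor of fat cell differentiation, at 110, 190 and 156 normalized counts in wild-type animals and 208, 97 and 165 in the knockout on the control diet (0.01, adjusted p = 0.987). Of the 8 listed adipocyte markers these were the only 2 on the panel, and their summed level was 209 to 428 in wild-type animals and 119 to 236 in the knockout. The part of fat tissue in the difference was not tested.

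**Figure D2:**
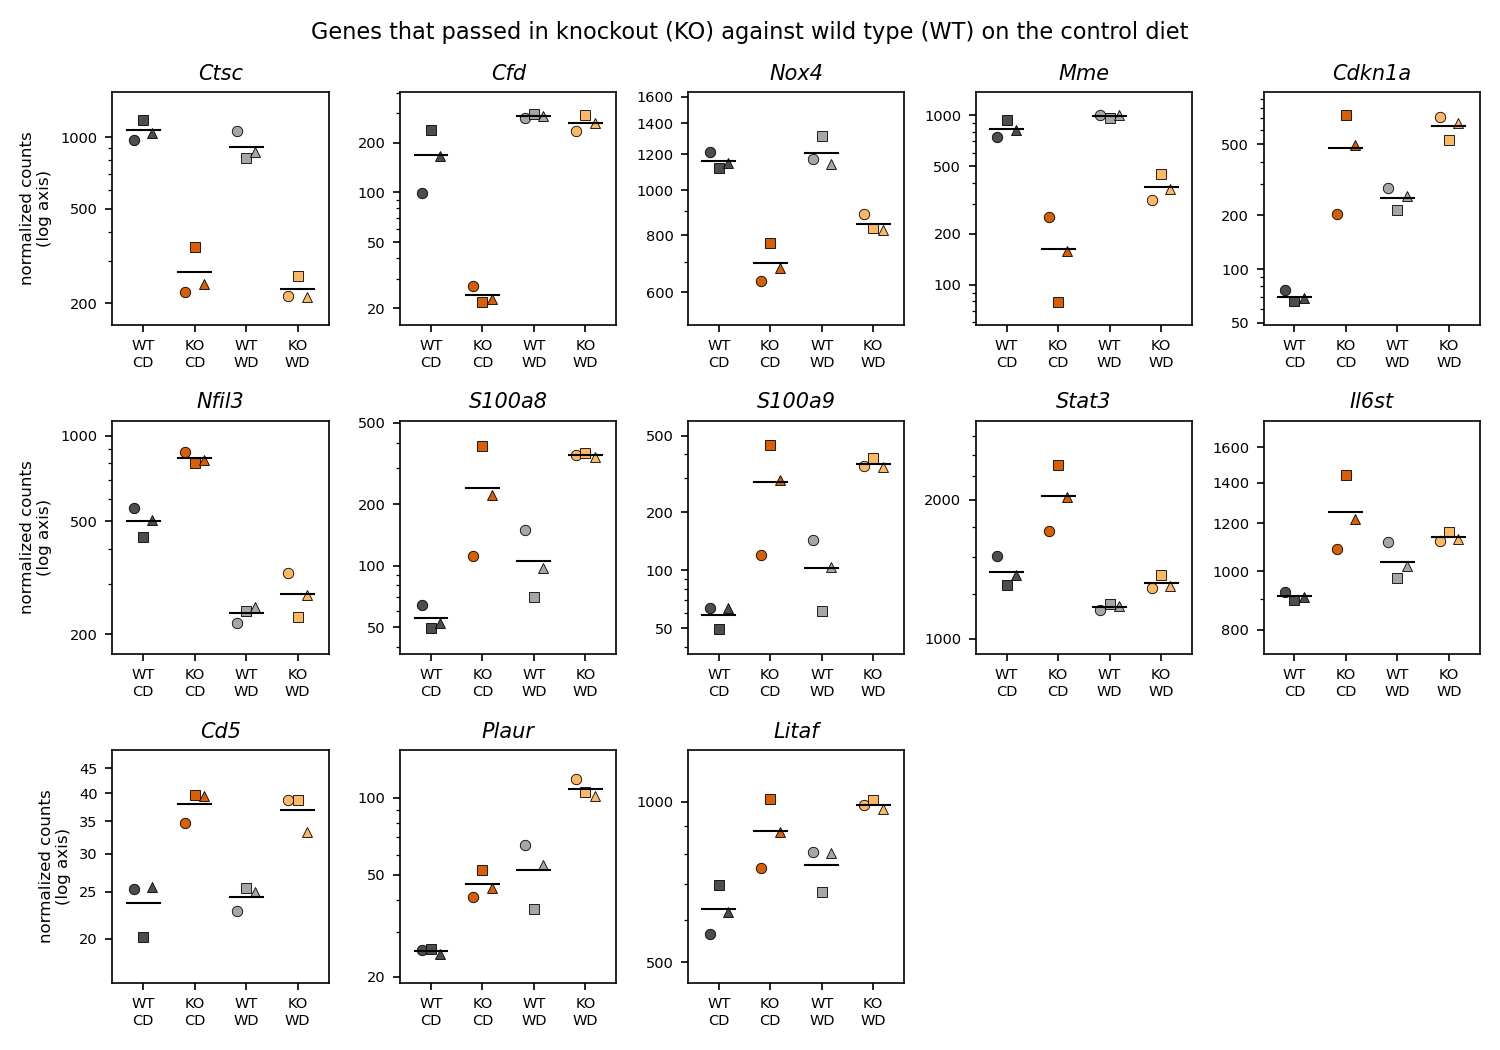
Normalized counts (log axis, a separate scale per gene) of the 13 genes that passed are shown for wild type (WT) and knockout (KO) on the control diet (CD) and Western diet (WD). Circles, squares and triangles are replicates 1, 2 and 3, and bars are group means of 3 mice. The control-diet groups are apart for all 13 genes, and Cfd is low in control-diet knockouts and not in Western-diet knockouts.

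Cdkn1a encodes p21, the cyclin-dependent kinase inhibitor that holds cells in G1 and is the textbook target of p53. It was the gene with the largest rise. Wild-type libraries held 75.9, 66 and 68.5 normalized counts, and knockout libraries 203, 725 and 493. Each knockout library was well above every wild-type library, and replicate 1 was the lowest of them. The means were 70.2 ± 5.15 and 474 ± 262 (SD, n = 3 each), a difference of 2.56 (SE 0.34, limma adjusted p = 0.000711), or 5.89-fold. On the Western diet, where the wild type was itself higher (284, 213 and 257), the difference was 1.33 (adjusted p = 0.0147).

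Of 13 tested genes of the p53 pathway and of cell death, Cdkn1a rose and no other gene passed, where 2.87% of all tested genes did. Their median difference was -0.05 against 0.07 for all tested genes. Trp53 itself measured 96.4, 95.1 and 103 normalized counts in wild-type libraries and 97.8, 85.5 and 91.9 in the knockout (-0.10, adjusted p = 0.797). The groups overlapped. Bax, a p53 target that permeabilizes mitochondria, gave 0.14, and Fas, the death receptor, measured 192, 234 and 198 against 259, 294 and 257 without overlap (0.38, adjusted p = 0.108). Bid, which links death receptors to mitochondria, gave -0.27 (adjusted p = 0.233), and Tnfsf10, the ligand TRAIL, -0.37 (adjusted p = 0.28).

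S100a8 and S100a9 encode the 2 subunits of calprotectin, a calcium-binding alarmin stored in neutrophils and monocytes that signals through Toll-like receptor 4. Their promoters are shown because the genes lie 23.6 kb apart and moved together, with that of Cdkn1a, the gene that rose most, for comparison (first listed start). Capitals mark TTGCNNAA, the C/EBP motif, the family of factors that drives myeloid and acute phase genes.
S100a8, chr3:90668821-90669120, plus strand: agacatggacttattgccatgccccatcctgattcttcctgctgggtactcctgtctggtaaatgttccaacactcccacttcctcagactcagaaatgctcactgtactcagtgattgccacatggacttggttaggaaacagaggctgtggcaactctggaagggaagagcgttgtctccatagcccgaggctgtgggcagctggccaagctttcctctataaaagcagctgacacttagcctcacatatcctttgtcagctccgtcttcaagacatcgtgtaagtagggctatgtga
S100a9, chr3:90695672-90695971, minus strand: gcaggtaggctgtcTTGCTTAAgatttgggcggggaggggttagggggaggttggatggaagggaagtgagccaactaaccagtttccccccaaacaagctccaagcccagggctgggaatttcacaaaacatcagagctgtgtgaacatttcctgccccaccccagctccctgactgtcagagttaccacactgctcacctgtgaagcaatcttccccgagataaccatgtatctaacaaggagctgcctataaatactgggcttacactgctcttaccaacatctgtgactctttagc
Cdkn1a, chr17:29090729-29091028, plus strand: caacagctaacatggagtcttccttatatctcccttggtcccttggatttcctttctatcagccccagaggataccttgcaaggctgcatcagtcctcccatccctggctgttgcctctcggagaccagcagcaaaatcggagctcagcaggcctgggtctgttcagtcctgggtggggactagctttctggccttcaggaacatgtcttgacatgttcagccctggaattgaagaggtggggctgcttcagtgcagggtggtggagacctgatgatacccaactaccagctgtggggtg
TTGCNNAA was searched on both strands and stood in 12.2% of all genes with a promoter entry and 14.7% of tested genes. It was found in 2 of the 9 higher genes, S100a9 at 236 bases before the start and Plaur at 59, and in 0 of the 4 lower genes. TTANGTAA, the D-box that NFIL3 binds, stood in 2.72% of all genes and 1.47% of tested genes and in none of the 13.

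S100a8 measured 64.3, 49.2 and 52.2 normalized counts in wild-type mice and 111, 384 and 221 in the knockout. S100a9 measured 63.3, 49.2 and 63.4 in wild-type mice and 120, 446 and 295 in the knockout. For both, each knockout library was above all wild-type libraries, with replicate 1 lowest and replicate 2 highest. S100a8 rose by 1.93 (SE 0.37, limma adjusted p = 0.0128, 3.81-fold) and S100a9 by 2.09 (SE 0.40, adjusted p = 0.0128, 4.25-fold). Both lost the call without knockout replicate 3 (adjusted p = 0.0723 and 0.0735), and each did so without wild-type replicate 2 or 3. On the Western diet they were higher by 1.78 and 1.87. Their receptor genes did not pass, Tlr4 giving -0.23 (adjusted p = 0.561).

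Of 13 neutrophil markers listed, 8 were on the panel and 6 were tested. The 2 alarmin genes passed and the other 4 did not, where 2.87% of all tested genes passed. Csf3r, the G-CSF receptor, measured 24.3, 36.9 and 51.1 normalized counts in wild-type animals and 43.1, 72.8 and 47.4 in the knockout (0.55, adjusted p = 0.323). Camp, the granule peptide cathelicidin, gave 0.07 and Ltf, lactoferrin of secondary granules, gave -0.08. Cxcr1 and Cxcr2, the chemokine receptors of mature neutrophils, stood between 6.91 and 17.8 normalized counts in the 6 libraries and were not tested, and no marker of the list on the panel was at 0. The summed level of the list was 217 to 282 in wild-type animals and 362 to 1025 in the knockout. Without S100a8 and S100a9 the sum was 111, 119 and 167 in wild-type animals and 130.4, 195 and 158 in the knockout, and these overlapped. The part of neutrophils in the rise was not tested.

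Il6st encodes gp130, the signalling subunit shared by interleukin 6 family receptors, and Stat3 the transcription factor it activates. Stat3 measured 1514, 1305 and 1376 normalized counts in wild-type libraries and 1711, 2386 and 2032 in the knockout, and Il6st 924, 898 and 905 against 1089, 1440 and 1221. Both were higher in every knockout library than in any wild-type library, again lowest in replicate 1 and highest in replicate 2. Stat3 rose by 0.54 (SE 0.11, limma adjusted p = 0.0147, 1.45-fold) and Il6st by 0.45 (SE 0.09, adjusted p = 0.0226, 1.37-fold). Both lost the call without knockout replicate 3 (adjusted p = 0.0735 and 0.0834) and without wild-type replicate 2 or 3, Il6st also without wild-type replicate 1 or knockout replicate 2. Both also lost it with each library recentred on its own median (0.42, adjusted p = 0.139, and 0.34, adjusted p = 0.14) and in the fit on the 6 control-diet libraries alone (0.0906 each). With the Western diet neither passed (0.17 and 0.14).

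The interleukin 6 and STAT3 list had 18 tested genes, of which these 2 rose and none fell, against 9 risen and 4 fallen of all 453 tested, with a median difference of 0.12 against 0.07. Il6 itself was low, at 28.2, 32.5 and 28.6 normalized counts in wild-type mice and 24.2, 37 and 37.5 in the knockout (0.12, adjusted p = 0.847). Cebpb, the C/EBP factor of the acute phase, came just above the threshold at 1.17 (SE 0.29, adjusted p = 0.0561). It measured 902, 1428 and 1167 in wild-type mice and 1510, 4237 and 2655 in the knockout, so the groups did not overlap. Hamp, hepcidin, the iron hormone that STAT3 induces, measured 34638, 27924 and 31276 in wild-type animals and 24506, 53766 and 37636 in the knockout (0.24, adjusted p = 0.768). Socs3, the feedback inhibitor of gp130, gave 0.14 (adjusted p = 0.886). Jak2, a kinase of cytokine receptors, gave -0.22 (adjusted p = 0.176).

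Nfil3 encodes a bZIP repressor that takes part in the circadian clock and in the development of innate lymphocytes. It measured 557, 440 and 504 normalized counts in wild-type animals and 876, 803 and 821 in the knockout. The knockout libraries lay close together and above the wild type, and here replicate 1 was the highest. Nfil3 rose by 0.74 (SE 0.13, limma adjusted p = 0.0064, 1.67-fold). With the Western diet both genotypes were far lower, at 220, 242 and 249 in wild-type mice and 328, 231 and 274 in the knockout, and the difference of 0.22 did not pass (adjusted p = 0.208). The change of the difference between diets, -0.52 (SE 0.18), did not pass either (adjusted p = 0.0828). The time of day at which tissue was taken is not stated, and its part was not tested. Of 6 tested bZIP and circadian factors 1 rose, where 1.99% of all tested genes did. Xbp1, a factor of the unfolded protein response, gave 0.44 (adjusted p = 0.119) and did not pass.

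The remaining 3 genes passed at the margin, each with an adjusted p of 0.0495. Plaur, the urokinase receptor, measured 25.3, 25.7 and 24.5 normalized counts in wild-type libraries and 41, 52.3 and 44.5 in the knockout, a rise of 0.83 (SE 0.20). Litaf, an endosomal protein first described as a factor for TNF transcription, measured 566, 698 and 621 against 752, 1012 and 877, a rise of 0.48 (SE 0.12). Cd5, a surface receptor of T cells and a subset of B cells, measured 25.3, 20.1 and 25.6 against 34.7, 39.6 and 39.5, a rise of 0.66 (SE 0.16). All 3 were separate between the groups. Leaving out single libraries ended the call of Plaur in 9 of 12 cases and those of Cd5 and Litaf in 10 of 12 each, among them every omission of a wild-type control-diet library and of knockout replicate 2 or 3. Behind Cd5 and Plaur stood 18 to 45 recovered counts per control-diet library. All 3 were also higher in the knockout on the Western diet (1.08, 0.38 and 0.57), where they passed.

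Beside Cd5, the other 15 tested T cell markers did not pass, where 2.87% of all tested genes did. The summed level of the list was 491 to 542 normalized counts in wild-type mice and 485 to 550 in the knockout. Cd3e, part of the T cell receptor complex, measured 18.5, 21.3 and 24.5 in wild-type animals and 30.5, 15.3 and 30.6 in the knockout (0.18, adjusted p = 0.847). Cd8a gave 0.02. Plau, the ligand of the urokinase receptor, measured 28.2, 30.2 and 26.6 against 40, 24.3 and 36.5 (0.21, adjusted p = 0.802). Tnf measured 16.5, 24.6 and 24.5 against 12.6, 23 and 15.8 (-0.36, adjusted p = 0.676). These groups overlapped.

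The 3 knockout animals differed from one another in complement genes. On the control diet 30 complement genes were tested, of which Cfd fell and none rose. Over all tested genes 0.883% fell and 1.99% rose. C3 measured 46589, 50425 and 48536 normalized counts in wild-type animals and 50960, 108467 and 78992 in the knockout. Replicate 1 was close to the wild type and replicate 2 at more than the level of any other library of the series. The difference of 0.65 (SE 0.21) did not pass (limma adjusted p = 0.125).

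The same order held in genes of the membrane attack complex and in a regulator of it. Hc, complement C5, measured 3646, 3028 and 3527 in wild-type mice and 3531, 9032 and 6024 in the knockout (0.77, adjusted p = 0.123). C9, which forms the pore, measured 10152, 7200 and 8600 against 10301, 21254 and 14824 (0.79, adjusted p = 0.0628). In both genes replicate 1 lay within or just above the wild-type range, whereas replicates 2 and 3 were clearly higher. Clu, clusterin, a soluble inhibitor of the attack complex, gave 0.64 (adjusted p = 0.124). C4a of the classical pathway gave 0.72 (adjusted p = 0.0722), with 9497, 8287 and 9296 in wild-type animals and 10035, 20910 and 15540 in the knockout.

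Of the 30 complement genes, 7 (23.3%) were above every wild-type library in knockout replicate 1, 23 (76.7%) in replicate 2 and 22 (73.3%) in replicate 3. Over all 453 tested genes those shares were 26.9%, 49.4% and 48.8%. The median complement gene stood at -0.03, 0.59 and 0.24 on the log2 scale from the wild-type mean in the 3 animals. For the 12 hepatocyte markers, all but Hamp complement genes themselves, the medians were -0.12, 0.78 and 0.28. In the Western-diet knockouts the median complement gene stood at -0.13, -0.06 and -0.13 from the same wild-type mean, so the higher levels were seen in 2 of 6 knockout animals. Terminal complement genes alone had a median difference of 0.45 between the control-diet groups. Without knockout replicate 2 this median was 0.13, without replicate 3 it was 0.42 and without replicate 1 it was 0.75. With all libraries it was 0.34 with each library recentred on its own median, 0.39 after recentring on the median ratio and 0.08 after quantile normalization. Knockout replicate 1 was 259 days old and replicates 2 and 3 were 253 and 250 days old, and what set the latter 2 apart was not tested.

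**Figure D3:**
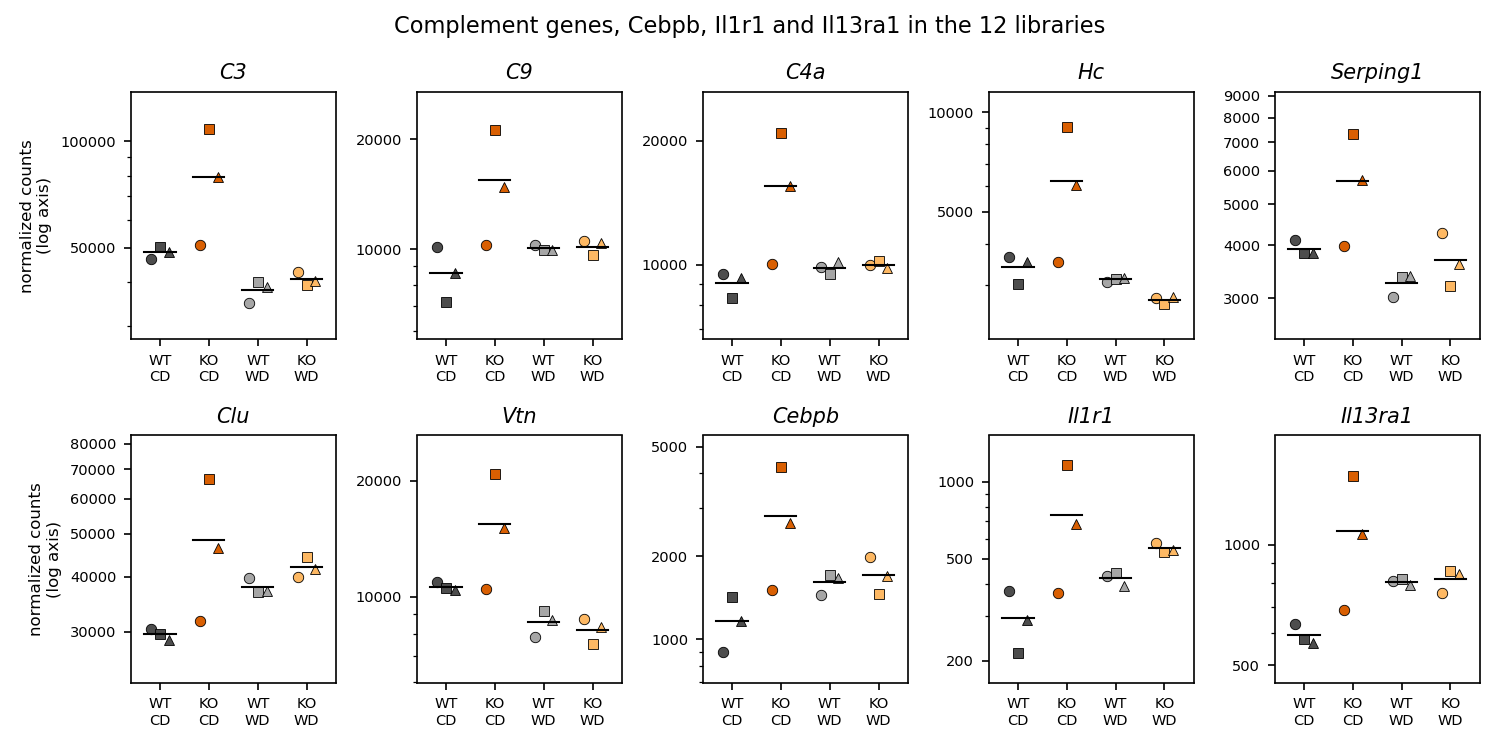
Normalized counts (log axis, a separate scale per gene) of 7 complement genes and of Cebpb, Il1r1 and Il13ra1 are shown for wild type (WT) and knockout (KO) on the control diet (CD) and Western diet (WD). Circles, squares and triangles are replicates 1, 2 and 3, and bars are group means of 3 mice. Control-diet knockout replicates 2 and 3 lie above the wild type in each gene, while replicate 1 lies close to it.

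Some other genes near the threshold had the same order among the knockout animals. Fas and Mapkapk2, also near it, had another order, with replicate 3 the lowest. Il1r1, the signalling receptor of interleukin 1, measured 376, 214 and 288 in wild-type mice and 369, 1163 and 685 in the knockout (1.22, SE 0.32, limma adjusted p = 0.0628). Il13ra1, a subunit of the type II interleukin 4 receptor, measured 635, 580 and 569 against 688, 1490 and 1066 (0.79, SE 0.20, adjusted p = 0.0569). Replicate 1 overlapped with the wild type in the former and stood just above it in the latter. Ifnar2 had this order too, as did Jak3, a kinase of cytokine receptors in lymphocytes, at 65.2, 54.8 and 63.4 against 86.2, 144 and 110 (0.85, adjusted p = 0.103).

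The count of genes that passed depended on which control-diet animals of either genotype were included. It was 10, 8 and 6 without wild-type replicate 1, 2 and 3. Without knockout replicate 1, 43 genes passed, 36 higher and 7 lower, and all of the 13 remained among them. These included 13 higher complement genes. Without knockout replicate 2 the total came to 9 and no complement gene passed as higher, and without knockout replicate 3 the total came to 6. Of the 9 genes that rose, 8 were highest in replicate 2 and 8 were lowest in replicate 1, whereas replicate 1 was the lowest of the 3 knockouts in 265 of all 453 tested genes. Ctsc, Cfd, Nox4, Mme, Cdkn1a and Nfil3 passed whichever of the 12 libraries was left out.

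Of 26 interferon response genes tested none passed, against 2.87% of all tested genes. Their median difference was 0.01, and 11 had a negative difference, against 167 of all 453. Irf1, the factor that interferon gamma induces first, measured 966, 750 and 850 normalized counts in wild-type libraries and 717, 540 and 593 in the knockout, a difference of -0.47 (SE 0.12, limma adjusted p = 0.0526). The 2 groups did not overlap. Psmb9, an immunoproteasome subunit, gave -0.45 (adjusted p = 0.125), with 269, 187 and 214 against 167, 162 and 153. Cxcl9, an interferon gamma induced chemokine, measured 493, 177 and 352 against 264, 95.8 and 197 and overlapped (-0.87, adjusted p = 0.264). Ifnar2, a subunit of the type I interferon receptor, lay the other way, with 716, 695 and 695 against 763, 958 and 893 and no overlap (0.31, adjusted p = 0.108).

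Of 9 tested genes of MHC class II presentation none passed, where 2.87% of all tested genes did. A negative difference was seen in 7 of the 9, against 167 of all 453, and the median was -0.25. The median member stood at 0.11, -0.23 and 0.09 from the wild-type mean in the 3 wild-type animals and at -0.17, -0.25 and -0.38 in the knockout, so the groups overlapped. H2-Eb1, a beta chain of the class II dimer, measured 370, 282 and 384 in wild-type animals and 274, 144 and 224 in the knockout (-0.72, SE 0.32, adjusted p = 0.28). H2-Aa, the partner alpha chain of another dimer, gave -0.64 (adjusted p = 0.392). With the Western diet 8 of these genes rose in the knockout, where 32.2% of all tested genes did. Their median there was 1.15 against 0.26 for all tested genes. Of 10 macrophage and Kupffer cell markers 8 rose there too, with a median of 0.88, and their part in the former was not tested. The median class II gene stood at 0.80, -0.36 and 0.29 in the 3 Western-diet wild-type animals, again from the control-diet wild-type mean, and at 1.23, 1.62 and 1.43 in the knockout. For H2-Eb1 and Irf1 the change of the genotype difference between diets passed, at 2.14 (SE 0.46) and 0.78 (SE 0.17), each with an adjusted p of 0.0414. These calls held in 4 and 3 of the 12 omissions of 1 library and were lost with age as a covariate (adjusted p = 0.226 and 0.223) and without the filter on low values (0.0595 each). After recentring on the median ratio H2-Eb1 passed (0.0475) and Irf1 did not (0.0745).

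Among cytokines and chemokines of inflammation none passed on the control diet. Il1b measured 82.7, 95.1 and 79.8 normalized counts in wild-type mice and 73.6, 98.3 and 94.8 in the knockout (0.04, adjusted p = 0.95). Ccl2, which recruits monocytes, measured 82.7, 71.6 and 94.1 against 191, 57.5 and 134 (0.47, adjusted p = 0.708). Ccl5 gave 0.01 and Cxcl10 -0.29. In each of these the groups overlapped. None of 32 tested chemokine and chemokine receptor genes passed (median 0.05), and none of 32 genes of Toll-like receptor, NOD and NF-kB signalling did (median 0.08). Over all tested genes the share that passed was itself only 2.87%.

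None of 10 macrophage and Kupffer cell markers passed, where 2.87% of all tested genes did. Of the 10 markers, 9 had a positive difference, against 286 of all 453 tested genes, with a median of 0.19 against 0.07. With each library recentred on its own median, these medians were 0.08 and -0.04. In the scaling as deposited, the summed level of the markers was 3547 to 3785 in wild-type mice and 3829 to 4495 in the knockout. These ranges were separate by a narrow gap. Marco, a scavenger receptor of Kupffer cells, measured 164, 91.8 and 134 in wild-type animals and 218, 240 and 228 in the knockout without overlap (0.85, limma adjusted p = 0.113). None of 7 B cell, 7 NK cell, 6 dendritic cell, 5 endothelial or 4 epithelial markers passed, and their medians were -0.19, 0.00, 0.14, 0.04 and 0.23. Pax5, the factor of B cell identity, gave -0.62 (adjusted p = 0.176), and Tcf7, a factor of naive T cells, -0.61 (adjusted p = 0.0689), with 82.7, 75 and 58.3 normalized counts in wild-type animals and 44.2, 48.5 and 46.4 in the knockout.

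**Figure D4:**
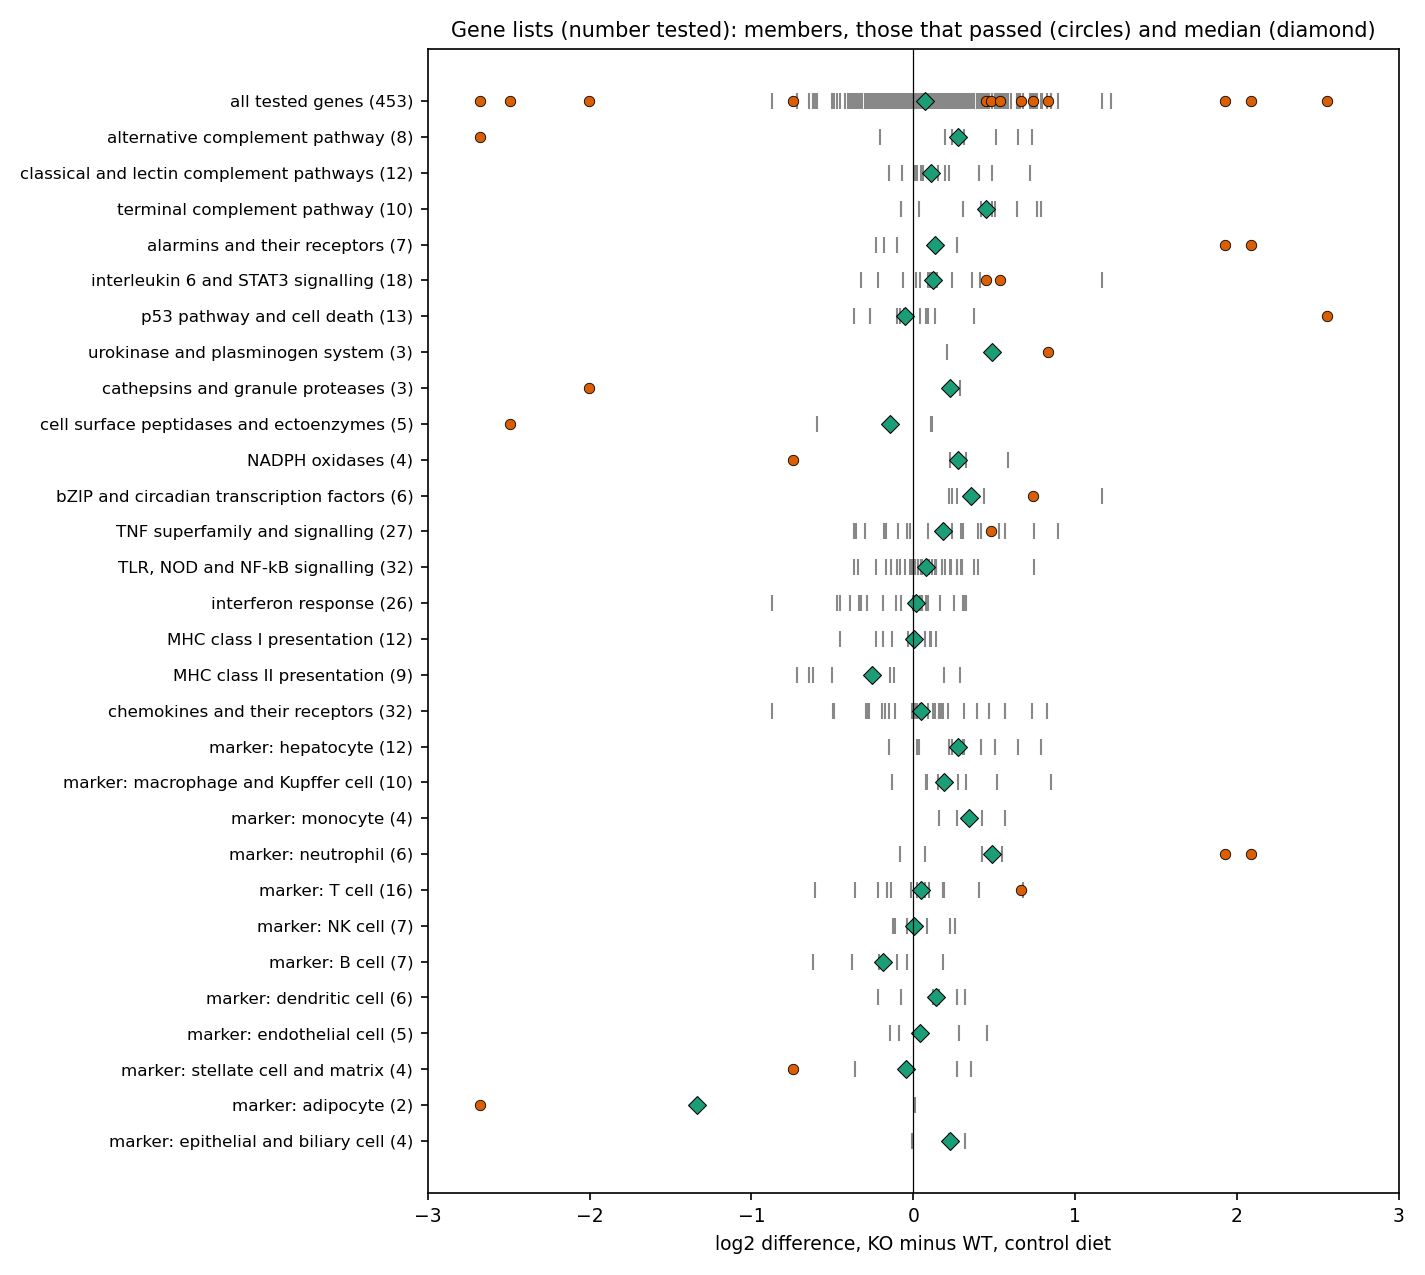
The log2 difference between knockout and wild type on the control diet is shown for each tested member of the gene lists (vertical ticks), with circles for members that passed and a diamond for the median. Neutrophil markers (0.49), the urokinase list of 3 tested genes (0.48) and terminal complement (0.45) have the highest medians. Without knockout replicate 2 these medians come to 0.35, 0.42 and 0.13. The urokinase median shown is the value of Vtn, which is also in the terminal complement list. The adipocyte list of 2 tested genes has the lowest (-1.34), followed by MHC class II (-0.25). Most lists have 0 or 1 member that passed.

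Compared with the same genotype contrast on the Western diet, far fewer genes passed. There 161 of 453 genes (35.5%) differed, 146 higher in the knockout (32.2%) and 15 lower (3.31%). After recentring on the median ratio, 112 passed, 69 higher and 43 lower. These 2 contrasts share no libraries, though they share the variance estimate of 1 fit. All 13 genes had the same direction on both diets, and 9 of them also passed on the Western diet, the exceptions being Cfd, Nfil3, Stat3 and Il6st. Across all 453 tested genes, which are not independent replicates, the differences on the 2 diets had a Pearson r of 0.248. Passing on one diet and not on the other does not show a difference between the diets, which was tested by the interaction.

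**Figure D5:**
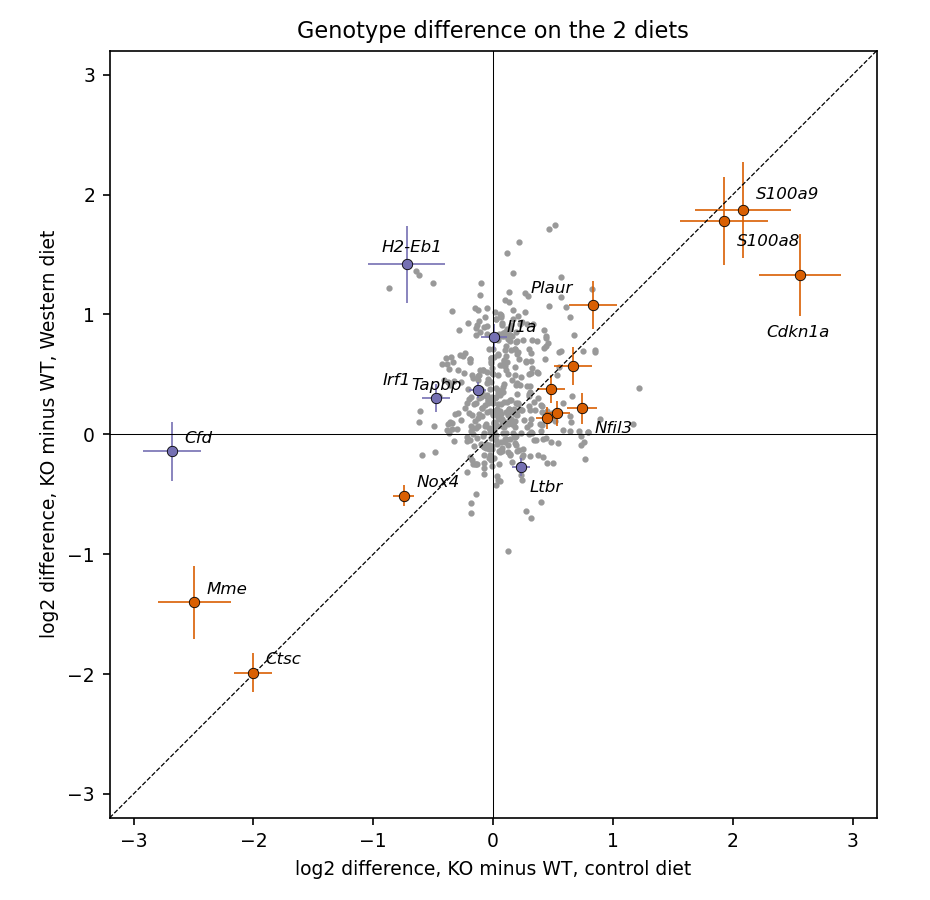
The log2 difference between knockout and wild type on the Western diet (vertical axis) is plotted against that on the control diet (horizontal axis) for 453 tested genes, with lines of 1 SE. Orange circles passed on the control diet, purple circles passed the test of the difference between diets (Cfd passed both), and the dashed line marks equal differences. Ctsc lies on the line at -2.00 and -1.99, and Cfd lies far from it at -2.68 and -0.14.

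Age was a further difference between the groups compared. With age as a covariate 5 genes passed, Ctsc (adjusted p = 0.003), Cfd (0.003), Mme (0.0205), Nox4 (0.0241) and Cdkn1a (0.0241). The other 8 did not, with adjusted p-values from 0.139 to 0.289, though for 7 of them, all but Nfil3, the difference was larger in that fit than without age. S100a8 gave 2.13, S100a9 2.33, Plaur 0.91, Cd5 0.81, Nfil3 0.69, Stat3 0.60, Litaf 0.53 and Il6st 0.49. The fit with age used a common slope for the 4 groups, set by age differences within groups. Those were widest in the Western-diet knockouts (221, 217 and 252 days), while the control-diet wild type spanned 231 to 232 days. That slope therefore rested mainly on Western-diet knockout replicate 3, and whether it holds on the control diet was not tested. No wild-type mouse was as old as the knockout control-diet mice, so on this diet genotype and age cannot be told apart by matching animals.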

How the data were processed

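RNA extracted with Trizol from 12 mice was hybridised to barcoded NanoString probes, per the labels' protocols. The authors deposited log2 values of normalized counts, per the headers of the workbook. Taken out of log2, each library's values were integers times a single factor (100% of values, tolerance 0.001), so the authors scaled whole counts by library. The origin of that factor is not given in the sources. The deposited series-wide value table holds the same log2 values shifted by 1 animal, and served only as an alternative. The planned test assumed linear values, so the log2 values were returned to the linear scale first.

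Genes whose mean reached 20 normalized counts were tested, as log2(normalized count + 1), with limma 3.58.1 in R 4.3.3 on all 12 libraries (a mean per group, variance trend, two-sided, Benjamini-Hochberg over 453 genes at 0.05). Levels are means ± SD. The fit was run on simulated counts with the same changes in all 3 control-diet knockout libraries. It called 91.7% of log2 changes of 1 and 100% of those of 2, with 4 false calls among 254 unchanged genes. Knockout animals that differ from one another, as those here do, were not simulated. Nothing states how the 3 mice of a group were housed or bred, so p-values measure the spread between these samples. Per the labels' protocols mice entered the diet at 12 to 18 weeks of age for 16 weeks, at most 238 days in all, and the labelled ages of the knockout control-diet mice exceed that. A label of diet duration that runs from 16 to 27 weeks in deposited order was not used. Of 547 gene IDs, 545 matched RefSeq.

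The comparison, the 31 gene lists and the genes named were chosen with earlier results of these data known. Named genes were all that passed, the 10 next in each direction by p (not all are spelled out, and some results are not reported here), up to 4 members of each list with the smallest p, and a fixed set. B2m, Bax, Camp, Cxcr1, Cxcr2, Fcgrt, Hamp, Il1a, Irf3, Ltf, Socs3 and Tapbp fall outside that rule and were added after their values were seen. Alternatives covered scaling, pseudocount and filter, the variance model, the samples in the fit, age, the source of values and omission of single libraries.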

Additional observations from a re-analysis of the deposited data

Results flagged for a closer look

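For 6 genes the genotype difference on the Western diet differed from that on the control diet in limma's interaction test. Cfd gave 2.54 (SE 0.34, adjusted p = 0.00427) and passed in all 12 omissions of a single library, with adjusted p-values of 5.73e-05 to 0.0252. The other 5 each had an adjusted p of 0.0414 and passed in only 3 or 4 of the 12 omissions. They were Il1a at 0.80 (SE 0.15), Tapbp at 0.50 (SE 0.10), Ltbr at -0.51 (SE 0.11), Irf1 at 0.78 (SE 0.17) and H2-Eb1 at 2.14 (SE 0.46). With age as a covariate Cfd alone of these passed, at an adjusted p of 0.0468. On the control diet Il1a, the alarm cytokine interleukin 1 alpha, held 83.8 ± 1.81 normalized counts in the wild type and 84.5 ± 5.66 in the knockout (SD, n = 3 each). Tapbp, the peptide loading factor tapasin, held 764 ± 31.6 and 699 ± 16.1. Ltbr, the lymphotoxin beta receptor, held 1196 ± 54.5 and 1411 ± 121.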

How the results depend on the processing

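Against 13 genes on the control diet, 21 passed after recentring on the median ratio (14 higher, 7 lower), 23 after quantile normalization (15 higher, 8 lower), 7 with an equal-variance test per gene over 12 libraries (3 higher, 4 lower), 7 with the fit on the 6 control-diet libraries alone (3 higher, 4 lower) and 5 with age as a covariate (1 higher, 4 lower). With an equal-variance test over 6 libraries 0 passed (60 at an unadjusted p under 0.05), and with the series-wide value table in limma 0 passed (45 at an unadjusted p under 0.05). Leaving out single libraries gave 6 (without wild-type replicate 3 or knockout replicate 3) to 43 (without knockout replicate 1) on the control diet, and 8 without wild-type replicate 2. It gave 84 (without Western-diet knockout replicate 2) to 177 against 161 on the Western diet and 1 to 100 against 6 for the interaction. The interaction count was 2 without the filter, 37 after recentring on the median ratio (16 higher, 21 lower) and 1 with age.

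Under the shifted columns of the series-wide values, 11 of the 13 genes turned direction, with Ctsc at 0.52, Nox4 at 0.070, Mme at 0.33, Cdkn1a at -0.42, S100a8 at -1.11, S100a9 at -1.15, Stat3 at -0.062, Il6st at -0.054, Cd5 at -0.18, Plaur at -0.57 and Litaf at -0.15. That table assigns each column to another animal. No other alternative turned a called gene, and all results rest on the workbook's own header lines. Over single genes, 2732 alternative values kept direction and side of the threshold, 93 lost a call, 52 gained one and 100 changed sign without a call on either side. No paired analysis was possible because the replicate numbers were given in accession order and pair no animals. Counts near 20 limit Cd5, Plaur and Cfd in the knockout.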
